A study of Homo sapiens with 7 samples.

Results

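Cells overexpressing prelamin A were compared with control cells of the same human dermal fibroblast strain, on 3 of the 7 arrays of the series: 1 prelamin A array and 2 control arrays. Prelamin A is the precursor of lamin A, a filament protein of the nuclear lamina under the inner nuclear membrane. Its C-terminal CAAX motif is farnesylated, and the protease ZMPSTE24 then cuts off the farnesylated end to release mature lamin A. When cleavage is lost or outpaced, farnesylated prelamin A stays at the nuclear membrane, and progerin, the shortened lamin A of progeria, keeps its farnesyl group for good. The comparison asks which transcripts differ when normal fibroblasts hold more wild-type prelamin A.

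All 7 arrays are labelled with 1 primary dermal fibroblast strain from a healthy person and with passage 10. The labels describe the prelamin A cells as overexpressing prelamin A, name no transgene for the controls, and do not say what virus, if any, the controls carried. The other arrays held cells with prelamin A and a farnesyltransferase inhibitor (FTI; 10 nM for 48 h on both arrays that had it), prelamin A and ZMPSTE24, progerin, and progerin and FTI, 1 array each. According to the study's methods, FLAG-tagged prelamin A was cloned into a lentiviral vector with a CMV promoter and puromycin in its name. Virus was made in human kidney packaging cells. Transduced cells with GFP were sorted, but the methods do not say which vectors those cells carried. Growth curves were set against cells with a GFP virus. These steps are not tied in the methods to the cultures on the arrays. The title of the array of prelamin A and FTI names FTI without prelamin A. Its treatment label names both and was followed. The labels mention DMSO as the vehicle without naming the arrays that received it. The methods name a pair of strains grown in duplicate and the labels name 1, so whether both control arrays came from separate cultures is not given.

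RNA was hybridised to Affymetrix Human Genome U133 Plus 2.0 arrays, and the deposited values are MAS 5.0 signals, 1 per probe set and array. The median signal was 76.2 on the prelamin A array, against 75.4 and 68.3 on the control arrays, and the ratio of the 3' to the 5' β-actin probe set was 1.62 against 1.24 and 1.06, a difference whose part in the results was not tested. The same ratio for GAPDH was 0.861 with prelamin A and 0.879 and 0.943 in the controls. The fibroblast markers COL1A1, COL1A2, COL3A1, PDGFRB, THY1, VIM, DCN, LUM, FAP and S100A4 were all expressed, and none of these 10 was called. PDGFRB was the dimmest of them, at 1411 units with prelamin A and 1539 and 2547 units in the controls. The brightest LMNA probe set, which measures lamin A and C transcripts, read 8498 units with prelamin A and 9300 and 14029 units in the controls, a log2 change of -0.43 (limma, unadjusted p = 0.341). Other bright LMNA probe sets were also below both controls. They read 6981 units against 7496 and 10863, 4590 against 6806 and 10059, and 1309 against 2035 and 2263. The remaining, dimmer LMNA probe sets were above both, at 387 units against 285 and 313 and at 52.4 against 24.6 and 47.1. The label was not tested by these readings, because none of the sources used here gives the place of the probes relative to the introduced cDNA. ZMPSTE24 itself read 6120 units with prelamin A and 4841 and 4973 units in the controls.

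Genes that reached 100 units on 1 or more of the 7 arrays, 12722 in all, were compared as log2(signal + 16), a scale that understates changes of dim genes. A gene was called when the prelamin A array was more than 2-fold above or below each control array alone and the unadjusted p from limma was under 0.05. By this rule 672 genes were higher in prelamin A cells, 5.28% of those tested, and 395 were lower, 3.1%. Where signals are followed by a value in parentheses, it is the log2 change of prelamin A from the mean of the controls on this scale, with its standard error (SE) from limma. In whole-culture RNA, fewer cells of a type and less RNA per cell cannot be told apart. With 1 prelamin A array, the only spread within a condition was that between the 2 controls, which may be technical. For each gene limma combined it with the spread pooled over all genes, at 1 residual and 3.5 prior degrees of freedom. Where the controls nearly coincided, as for ID4 (72.3 and 72.7 units, SE 0.32), the SE came mostly from the pooled spread. The p-values hold no spread among prelamin A cultures. No gene passed an adjusted p of 0.05: the smallest Benjamini-Hochberg value in limma was 0.0965, shared by 31 genes, while 1510 genes had an unadjusted p under 0.05. An exact permutation test of 1 array against 2 cannot go below p = 0.333.

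The controls were more than 2-fold apart in 1180 genes, 9.28% of those tested, with control 1 the higher in 631. The requirement against each control removed 246 genes that passed against their mean, and 3287 genes (25.8%) had a prelamin A value between the controls. Among called genes, 194 rises and 50 falls exceeded 4-fold against each control, and 57 rises and 9 falls exceeded 8-fold. Of the 672 higher genes, 289 had both controls under 100 units, and 335 had both at 100 or more. Of the 395 lower genes, 160 fell to less than 100 units with prelamin A. Just inside the threshold, the p53 target SPATA18 read 1477 units with prelamin A and 697 and 690 in the controls (1.07). Just outside it, the BMP target ID2 had a log2 change of 1.09 but was within 2-fold of control 1. The rises were the more numerous and the larger, with a median log2 change of 1.82 against -1.58 for the falls.

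**Figure D1:**
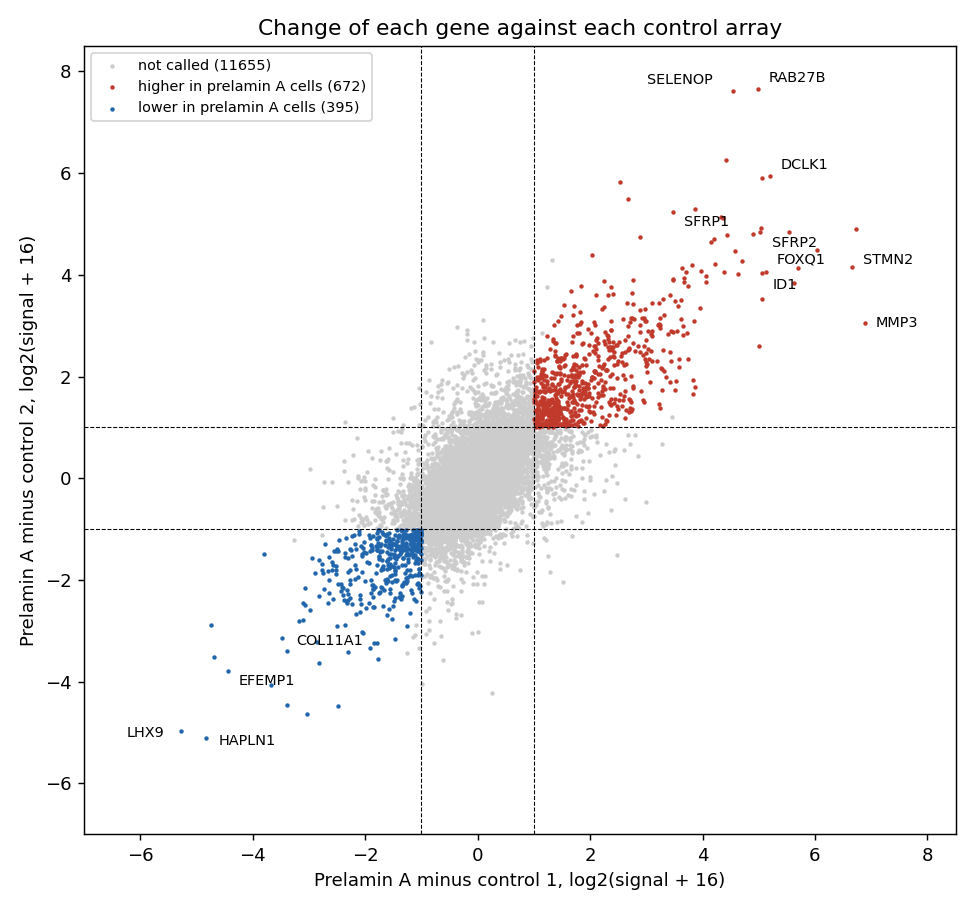
Each point is 1 of 12722 genes, plotted by the log2 difference of the prelamin A array from control 1 (horizontal) and from control 2 (vertical); dashed lines mark 2-fold. The 672 red and 395 blue points lie beyond 2-fold from both controls, and points far from the diagonal, such as MMP3, had controls that differed from each other.

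Many genes were measured by several probe sets, a second reading of the same RNA. Of the higher genes, 303 had another probe set above the filter, and in 250 of them (82.5%) every other probe set lay on the same side of both controls. For the lower genes this held in 114 of 154 (74.0%). Fewer had another probe set more than 2-fold from each control in the same direction. These were 192 of the 303 (63.4%) and 87 of the 154 (56.5%). The matching shares over all genes were not computed. Only ANTXR1 had another probe set more than 2-fold the opposite way from both controls.

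The list of BMP and TGF-β signalling genes held 9 higher and 0 lower among 36 tested (25.0% higher, against 5.28% of all genes), with a median log2 change of 0.56 against -0.02 over all genes. Bone morphogenetic proteins bind serine-threonine kinase receptors that phosphorylate SMAD proteins, which enter the nucleus and switch on target genes such as the ID family and their own feedback inhibitors. The higher genes were targets, feedback inhibitors and antagonists: 5 of 10 targets, 2 of 4 inhibitory SMADs and ubiquitin ligases, and 2 of 5 antagonists were called, against 0 of 9 ligands and 0 of 8 receptors. The difference between these roles was not tested. This list and those below were chosen with earlier results of these data known, so their shares are descriptions.

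ID1, an inhibitor of basic helix-loop-helix factors and a direct BMP target (GRCh38.p14 chr20:31605289-31606510), read 14766 units with prelamin A and 430 and 888 units in the controls. The prelamin A value lay far above both, and the log2 change was 4.54 (SE 0.52, limma unadjusted p = 0.000568, adjusted p = 0.118). ID3, of the same family, read 12826 units against 1186 and 2294 (2.95, SE 0.50), and ID4 read 634 units against 72.3 and 72.7 (2.88, SE 0.32). The related ID2 was bright on all 3 arrays, at 25874 units with prelamin A and 13551 and 10928 units in the controls, and was not called. ATOH8, a helix-loop-helix factor induced by BMP signals in other cells, read 1751 units against 172 and 204 (3.12, SE 0.33).

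The secreted BMP antagonist NOG (noggin) read 1225 units with prelamin A and 63.4 and 57.4 units in the controls, a log2 change of 4.02 (SE 0.32, unadjusted p = 0.000117). Both control readings were dim and close together. BAMBI, a decoy receptor without a kinase, read 1720 units against 445 and 326 (2.13, SE 0.36). The inhibitory SMADs SMAD6, at 2295 units against 695 and 316 (2.25, SE 0.55), and SMAD7, at 2976 units against 544 and 1056 (1.95, SE 0.50), were also above both controls. The homeobox gene MSX1 had 2593 units against 916 and 1227 (1.28, SE 0.36).

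BMP2 read 171 units with prelamin A and 12.6 and 101 units in the controls, INHBA 12199 against 7639 and 5752, and TGFB1 1239 against 986 and 2388. TGFB1 lay between its controls. Among receptors BMPR2 read 4869 units against 2983 and 3436, and ACVR1 read 3905 against 3104 and 3162. Both were above the controls by less than 2-fold. Over the 8 receptors tested the median log2 change was 0.028, against -0.0188 over all genes.

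The BMP targets differed among the arrays. ID1 read 14766 units with prelamin A, 11807 when FTI was added, 168 when ZMPSTE24 was added, 171 with progerin and 182 with progerin and FTI, against 430 and 888 in the controls. ID3 read 12826 units with prelamin A, 8607 when FTI was added, 348, 219 and 269 units on the other 3, and 1186 and 2294 in the controls. ATOH8 (1751 and 1129 units, then 189, 235 and 229, controls 172 and 204) and ID4 (634 and 469, then 54.9, 74.2 and 54.1, controls 72.3 and 72.7) were also high on those 2 arrays alone. The difference between prelamin A and progerin was tested for ID1 in the same fit, at a log2 difference of 6.31 (SE 0.61, unadjusted p = 0.000256, adjusted p = 0.617). NOG was less sharply divided, at 1225 and 1856 units, then 412, 157 and 181, against 63.4 and 57.4 in the controls. SMAD9, a receptor-regulated SMAD of the BMP branch that was looked up after the values were seen, was likewise highest on those 2 arrays, at 5690 and 6101 units, then 1335, 1008 and 1103, with controls at 878 and 702.

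**Figure D2:**
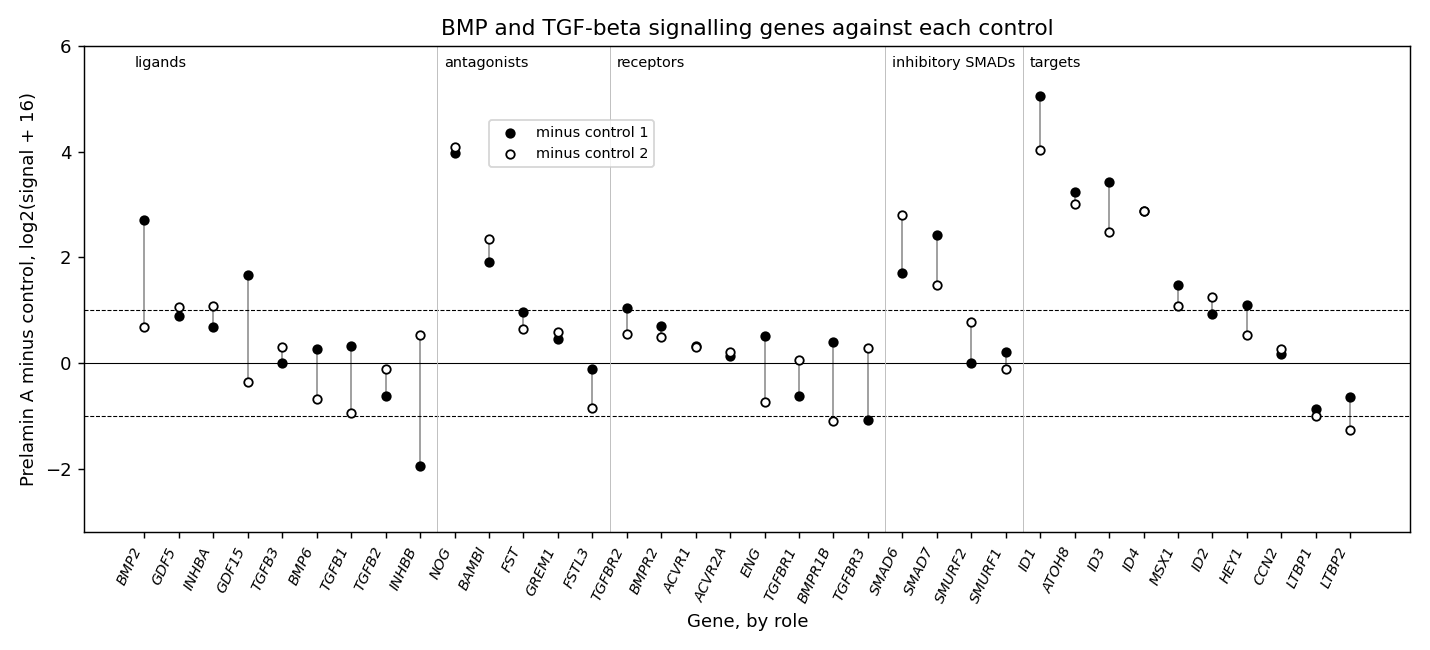
Log2 difference of the prelamin A array from control 1 (filled) and control 2 (open) for the 36 BMP and TGF-β signalling genes tested, grouped by role; dashed lines mark 2-fold. The highest targets and antagonists, ID1 (4.54 on average), NOG (4.02) and ATOH8 (3.12), lie above both controls, while the receptors BMPR2 and ACVR1 lie within 2-fold of both.

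Several secreted WNT regulators rose. SFRP proteins bind WNT ligands outside the cell and RSPO3 strengthens WNT signals by sparing frizzled receptors from degradation. SFRP2 (GRCh38.p14 chr4:153780591-153789083) read 9652 units with prelamin A and 277 and 305 units in the controls, a log2 change of 4.98 (SE 0.32, unadjusted p = 4.64e-05, adjusted p = 0.0965). SFRP1 read 11955 units against 386 and 410 (4.85, SE 0.32), and SFRP4 read 3091 units against 184 and 290 (3.65, SE 0.41). The controls were close together for SFRP1 and SFRP2, less so for SFRP4, and the other probe sets of SFRP1 and SFRP2 moved the same way, for example 8798 units against 202 and 323 for SFRP1.

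RSPO3 read 2214 units with prelamin A and 105 and 69.8 units in the controls (4.45, SE 0.38). Among ligands, the non-canonical WNT5A fell to 3108 units against 9764 and 12554 (-1.83, SE 0.35). The canonical target AXIN2 read 631 units against 666 and 822 and was not called. Of 7 WNT targets tested, however, 2 were called higher and 0 lower. Their median log2 change was 0.996, against -0.0188 over all genes. In all, 7 of 31 WNT pathway genes were higher (22.6%, against 5.28% of all genes) and 2 lower (6.45%, against 3.1%). SFRP1 was also high on the other lamin arrays. It read 13552, 13372, 6285 and 5038 units on the arrays of prelamin A and FTI, prelamin A and ZMPSTE24, progerin, and progerin and FTI.

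Several matrix-degrading enzymes rose while several collagens fell. The 4 stromelysins and elastase tested were all higher, along with the collagenase MMP1 and the inhibitor TIMP3. They were 6 of 20 metalloproteinases and inhibitors (30.0% higher, against 5.28% of all genes). MMP17, ADAM12 and ADAMTS2 were lower (15.0%, against 3.1% of all genes). The count of higher genes ranged from 2 to 6 over the alternative settings, here and below without those that use every probe set or leave out a control. MMP3 (stromelysin-1) read 23076 units with prelamin A and 179 and 2773 units in the controls, a log2 change of 4.97 with a large error (SE 1.60), and was not called with a pseudocount of 1. The prelamin A array was the highest, and the controls were far apart. MMP10 (stromelysin-2) read 3024 units against 74.8 and 249 (4.29, SE 0.71), and MMP12 (macrophage elastase) read 3291 units against 15.0 and 94.1 (5.82, SE 0.81). MMP10 and MMP12 were far brighter on the prelamin A array than on the others: MMP10 read 33.8, 1.94, 29.7 and 39.2 units, and MMP12 341, 159, 66.7 and 45.1 units, with prelamin A and FTI, prelamin A and ZMPSTE24, progerin, and progerin and FTI. MMP1 was bright everywhere, at 33449 units against 12175 and 15930 (1.26, SE 0.36).

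MMP10, MMP1, MMP3 and MMP12 are neighbours on chromosome 11 within 0.104 Mb. They formed the single run of 4 among 14 runs of 3 or more neighbouring tested genes called the same way. Other runs were OGN, OMD and ASPN on chromosome 9, leucine-rich proteoglycans that were lower, and ABCA8, ABCA9 and ABCA6 on chromosome 17, lipid transporters that were higher. ABCA8 read 251 units with prelamin A and 46.9 and 32.6 in the controls. On chromosome 4, the bone matrix genes IBSP and SPP1 with ABCG2 made up one run, and TLR2, RNF175 and SFRP2 another. SPP1 (osteopontin) read 1601 units against 176 and 209 (2.96). A pair of runs held protocadherin β genes, whose near-identical sequences make single members uncertain on this array.

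Of 39 collagens and collagen-modifying enzymes, 13 were lower (33.3%, against 3.1% of all genes), with a median log2 change of -0.89. The 2 higher members (5.13%) were near the share of all genes, 5.28%. COL11A1, a fibrillar collagen that nucleates thin fibrils in cartilage, fell to 1469 units with prelamin A, against 16514 and 13105 in the controls (-3.31, SE 0.35, unadjusted p = 0.000375). Its other 2 probe sets fell by 3.71 and 3.70 on the log2 scale. The type V chains that join COL11A1 in fibrils were lower too, with COL5A2 at 6286 units against 18737 and 21452 (-1.67, SE 0.33) and COL5A1 at 5751 units against 13642 and 17967 (-1.44). The basement membrane collagens COL4A1, at 693 units against 3724 and 3459 (-2.35, SE 0.32), and COL15A1, at 1002 units against 5737 and 7661 (-2.71, SE 0.36), lay below both controls. COL18A1, also a basement membrane collagen, was higher, at 364 units against 103 and 167 (1.37, SE 0.41).

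The main fibril collagens were not called, and their probe sets did not read alike. By its brightest probe set COL1A1 read 32724 units with prelamin A and 39093 and 29878 in the controls, between them. Its other 3 probe sets were below both controls, at 21502 units against 40161 and 41944, 2101 against 7974 and 23969, and 1598 against 4333 and 8401. COL1A2 read 49536 units against 52329 and 48241, between its controls, and its other 2 probe sets lay below both by less than 2-fold. COL3A1 was below both controls as well, at 23834 units against 35289 and 38721 (-0.63). Among 15 enzymes 6 were lower and 0 higher, while 3.1% of all genes were lower. The lysyl oxidase-like crosslinking enzyme LOXL4 fell to 488 units against 4227 and 2827 (-2.79, SE 0.40), the collagen chaperone SERPINH1 (HSP47) to 4301 units against 12642 and 20662 (-1.91, SE 0.43), and the prolyl 3-hydroxylase P3H2 to 45.8 units against 304 and 311 (-2.39, SE 0.32). The other higher member was the transmembrane collagen COL13A1, at 4416 units against 695 and 923 (2.44, SE 0.36).

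Other matrix genes moved both ways. HAPLN1, which links proteoglycans to hyaluronan, fell to 23 units against 1092 and 1324 (-4.96, SE 0.34), and its other 3 probe sets fell by 3.86 to 4.46. The fibulin EFEMP1 fell to 255 units against 5882 and 3705 (-4.11, SE 0.42), while FBLN2, another fibulin, rose to 3137 units against 437 and 543 (2.65, SE 0.34). COMP, a cartilage matrix protein, read 1979 units against 83.0 and 41.0 (4.73, SE 0.46). The integrin ITGA8 rose (1439 units against 139 and 118) and the fibronectin receptor chain ITGA5 fell (1022 units against 3403 and 4544).

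**Figure D3:**
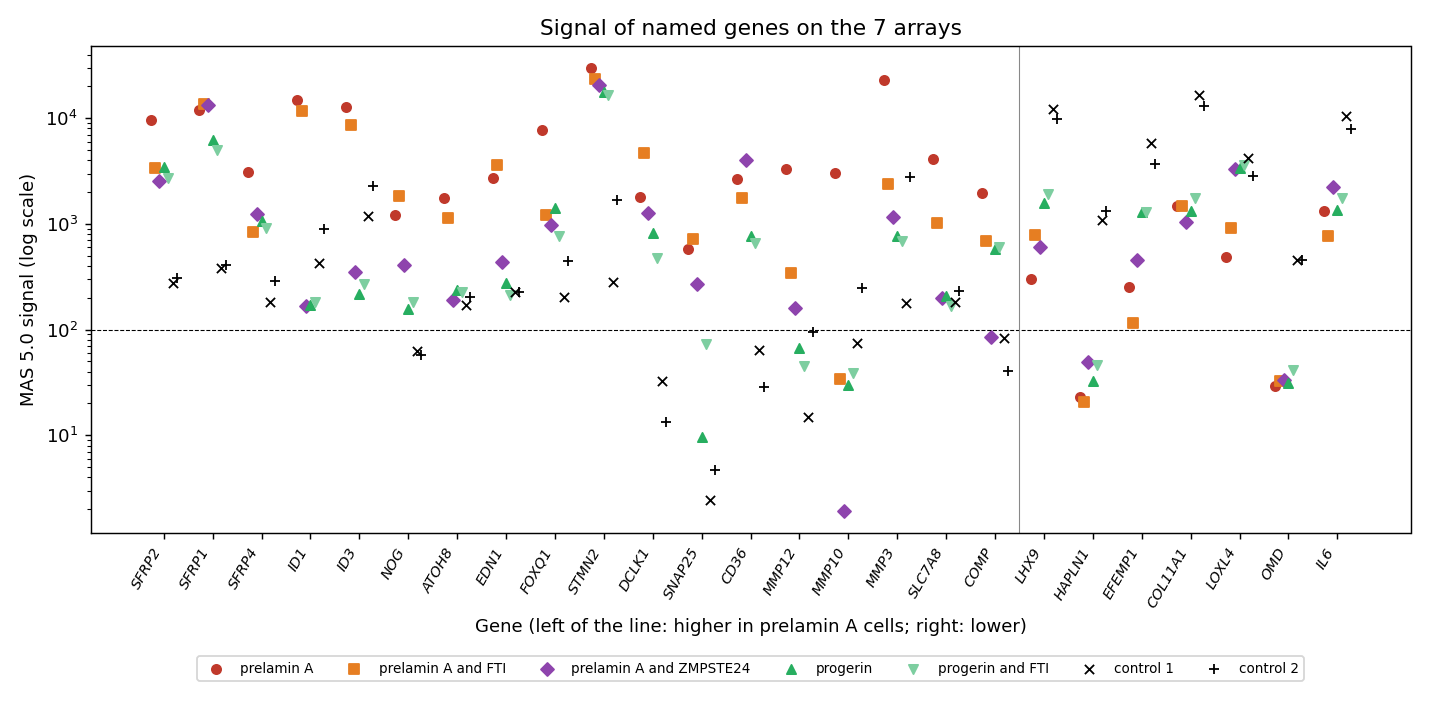
MAS 5.0 signal (log axis; dashed line at 100) of 25 named genes on the 7 arrays, with prelamin A at the left of each group and the controls at the right. ID1, ID3 and ATOH8 are high with prelamin A, with and without FTI; MMP10 and MMP12 are highest with prelamin A; and COL11A1 and HAPLN1 are low on all 5 arrays with a lamin transgene.

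Ranked by the smaller of the changes against each control, the largest fall was that of the LIM-homeobox transcription factor LHX9 (GRCh38.p14 chr1:197912464-197935478), known from gonad and limb development in mice. It read 300 units with prelamin A and 12235 and 9943 units in the controls, a log2 change of -5.13 (SE 0.34, unadjusted p = 5.17e-05), and its other 2 probe sets fell by 5.06 and 2.52. All 3 readings lay below both controls. The forkhead factor FOXQ1 read 7676 units against 205 and 449 (4.59, SE 0.54). It read 1225 units on the array of prelamin A and FTI and 969 on that of prelamin A and ZMPSTE24. With progerin it read 1401 units, and with progerin and FTI 773, both also above the controls. TBX3, a T-box repressor, rose to 2581 units against 652 and 742 (1.87), and HOXC11 to 880 units against 259 and 391 (1.42). In the list of homeobox and positional factors, 32 tested, these 2 were called higher (6.25%, against 5.28% of all genes). LHX9 was called lower (3.12%, against 3.1% of all genes). MSX1, counted above with the BMP targets, is a homeobox gene outside that list.

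Genes best known from neurons held 9 higher and 2 lower of 23 tested (39.1% and 8.70%, against 5.28% and 3.1% of all genes). The members were chosen with earlier results of these data known, which limits what the shares show. STMN2, a microtubule-destabilising stathmin, read 29845 units with prelamin A and 280 and 1668 in the controls (5.40, SE 1.07), with the controls far apart. DCLK1, a doublecortin-like kinase on microtubules, read 1779 units against 32.7 and 13.2 (5.57, SE 0.44), and all 4 of its probe sets were above both controls. SNAP25, a SNARE of synaptic vesicle release, read 579 units against 2.42 and 4.74 (4.93, SE 0.33). The neurofilament genes INA, NEFL and NEFM, at 303, 264 and 98.0 units with prelamin A, were also called, against 12.8, 29.7 and 29.7 units on control 1 and 5.20, 34.4 and 16.2 units on control 2. The call of NEFM was lost with a pseudocount of 64 and with an intensity trend in limma. They are also used as markers of the kidney packaging cells that made the virus; L1CAM, the other marker of those cells, read 47.5 units against 43.3 and 8.02 and was under the filter, and the part of carried-over RNA was not tested.

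Markers of other cell types were mostly dim beside the fibroblast markers, and their sums, over 1 probe set a gene, did not all move one way. The 4 packaging cell markers summed to 713 units with prelamin A and 116 and 63.8 units in the controls. All 3 that passed the filter were called higher, against 5.28% of all genes. Above both controls was also the sum of 4 leukocyte markers, 472 units against 211 and 159. So were those of 6 keratinocyte and epithelial markers, 215 against 155 and 129, and of 3 melanocyte markers, 187 against 95.7 and 86.0. In these lists 2, 1 and 0 members passed the filter, and 1, 0 and 0 were called. Between the controls were the sums of 5 smooth muscle and pericyte markers, 885 units against 912 and 608, of 4 adipocyte markers, 263 against 1137 and 134, and of 2 Schwann cell markers, 27 against 63.9 and 25.4, with 0 called in each. The adipocyte sum rests on LEP, at 202 units against 1099 and 85.0. The 5 endothelial markers summed to 379 units against 270 and 192, and the 4 without TEK to 212 against 246 and 189. TEK (167 units against 23.5 and 2.19) was called, CDH5 (35.7 against 7.53 and 8.06) was under the filter, and PECAM1 (88.0 against 156 and 92.3) and VWF (33.8 against 54.3 and 43.6) were below both controls. Of the leukocyte genes, CD14 was called (320 units against 87.2 and 55.3), while PTPRC read 55.5 against 46.3 and 19.8. KRT14, EPCAM and SOX10 were at 1.76, 1.15 and 14.8 units with prelamin A. The part of such cells in the results was not tested.

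The list of amine, alcohol and aldehyde enzymes, which also holds reductases and hydrolases, held the greatest share of higher genes of any list with 10 or more genes tested, 6 of 14 (42.9%, against 5.28% of all genes), with 0 lower and a median of 1.15. The called genes were the 1 amine oxidase, 2 of 5 aldehyde dehydrogenases, 3 of 6 reductases and hydrolases and 0 of 2 alcohol dehydrogenases. Of the 14, 13 were above both controls. MAOA, the mitochondrial monoamine oxidase, read 621 units with prelamin A and 18.1 and 18.4 units in the controls (4.22, SE 0.32, unadjusted p = 9.06e-05). The epoxide hydrolase EPHX1 read 2860 units against 457 and 921 (2.11), and the aldo-keto reductase AKR1C1, which has near-identical paralogs, read 23005 against 10078 and 6652 (1.49). At an unadjusted p under 0.01 in place of 0.05, the count was 1.

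Of 26 selenoprotein and oxidant-defence genes, 3 were called higher (11.5%, against 5.28% of all genes) and 0 lower. HMOX1, which degrades haem, rose to 8502 units against 773 and 1715 (2.87, SE 0.56), and TXNRD1, a selenoprotein that reduces thioredoxin, to 17642 units against 4173 and 5102 (1.93, SE 0.34). NQO1, another NRF2 target, read 5187 units against 2556 and 5021 and was not called. In lipid use, the fatty acid transporter CD36 rose to 2645 units against 64.3 and 28.7 (5.47, SE 0.47) and PDK4, which restrains pyruvate entry to the mitochondrion, to 390 units against 27.7 and 34.1 (3.12).

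Of 30 hypoxia and glycolysis genes, 24 were below both controls (80.0%, against 38.8% of all genes), 7 were called lower (23.3%, against 3.1%) and 1 higher (EPAS1; 3.33%, against 5.28%). The count of lower genes ranged from 3 to 7 over the alternative settings. TPI1, a glycolytic isomerase, fell to 10210 units against 24852 and 25596 (-1.30, SE 0.32), ENO2 to 783 units against 3094 and 2479 (-1.80) and the angiogenic factor VEGFA to 4755 units against 13113 and 11881 (-1.39). The controls were close together for each. LDHA read 42481 units against 41785 and 36582, a difference in the other direction that was not called.

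Unfolded protein response genes were lower in 4 of 25 (16%, against 3.1% of all genes) and higher in 0, and the count of lower genes ranged from 1 to 5 over the alternative settings. The endoplasmic reticulum chaperone HSPA5 (BiP) fell to 10674 units against 21521 and 23112 (-1.06), a call lost under quantile normalization (-0.97), and XBP1, a transcription factor of this response, to 1477 units against 4025 and 4276 (-1.48). The serine synthesis genes PHGDH (362 units against 1279 and 4428) and PSAT1 (1527 against 5514 and 14601) also fell, but there control 2 was far above control 1. The same held for ASNS, asparagine synthetase, at 985 units against 2058 and 10067, which was not called.

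Interferon-induced genes were lower in 8 of 38 (21.1%, against 3.1% of all genes; 2 to 10 over the alternative settings) and higher in 0, but the controls differed among themselves: control 1 was more than 2-fold above control 2 in 17 of these genes. The median log2 difference of prelamin A was -1.51 from control 1 and -0.48 from control 2. IFITM1, which blocks viral entry, fell to 1921 units against 11091 and 5177 (-1.97, SE 0.55), and IFI44L fell to 32.4 units against 655 and 121 (-2.65, SE 0.99). The call of IFI44L was lost under quantile normalization, median centring, pseudocounts of 1 and 64 and no filter on dim probe sets. MX1, an antiviral GTPase, read 386 units against 2415 and 409, so that it lay far below control 1 and beside control 2, and was not called.

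Interferon acts on many of these genes through the interferon-stimulated response element. The letters GAAA-NN-GAAA (N is any base) on either strand occur in 3.57% of 34796 RefSeq promoter windows, each 250 bases before to 50 after a start site. Of 8 lower genes 7 had a window and 5 held the letters; of the other members of the list 16 of 24 held them. The windows of 4 lower genes are printed to show where the letters lie, in capitals, 5′ to 3′ on the gene's strand (RefSeq, GRCh38.p14; overlapping matches run together). A match is a description of the letters. The windows are IFITM1 at chr11:313790-314089 (+), with matches beginning 40 and 6 bases before the start site, IFI44L at chr1:78620198-78620497 (+), IFIH1, an RNA sensor, at chr2:162318635-162318934 (-), and IFI27 at chr14:94110486-94110785 (+).
IFITM1: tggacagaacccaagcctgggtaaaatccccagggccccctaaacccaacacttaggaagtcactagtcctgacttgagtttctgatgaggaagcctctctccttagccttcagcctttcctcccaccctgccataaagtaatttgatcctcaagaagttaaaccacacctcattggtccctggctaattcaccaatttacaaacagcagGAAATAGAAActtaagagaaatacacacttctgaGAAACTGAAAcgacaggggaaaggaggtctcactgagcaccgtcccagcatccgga
IFI44L: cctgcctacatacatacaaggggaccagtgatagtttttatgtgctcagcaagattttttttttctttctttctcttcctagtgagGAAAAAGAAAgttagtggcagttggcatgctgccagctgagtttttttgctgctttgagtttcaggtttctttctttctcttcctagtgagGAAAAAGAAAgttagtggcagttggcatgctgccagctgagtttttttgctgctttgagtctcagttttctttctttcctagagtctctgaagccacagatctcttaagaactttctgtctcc
IFIH1: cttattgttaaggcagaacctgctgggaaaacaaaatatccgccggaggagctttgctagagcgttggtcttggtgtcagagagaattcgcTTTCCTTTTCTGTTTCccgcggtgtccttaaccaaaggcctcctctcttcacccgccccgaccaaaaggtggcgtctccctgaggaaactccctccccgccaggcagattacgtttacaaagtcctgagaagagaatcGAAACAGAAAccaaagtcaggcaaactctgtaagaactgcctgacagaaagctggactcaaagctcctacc
IFI27: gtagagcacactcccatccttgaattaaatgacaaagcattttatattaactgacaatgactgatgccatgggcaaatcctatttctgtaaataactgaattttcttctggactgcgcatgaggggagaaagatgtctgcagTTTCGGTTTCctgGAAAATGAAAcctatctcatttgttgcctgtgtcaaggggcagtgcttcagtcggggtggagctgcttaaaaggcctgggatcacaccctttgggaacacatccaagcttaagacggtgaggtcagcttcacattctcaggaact

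IFIH1 fell to 58.9 units with prelamin A against 513 and 212 (-2.21, SE 0.59), and IFI27 to 9.36 units against 180 and 59.3 (-2.26, SE 0.65; not called with a pseudocount of 64). For all 4 genes printed, control 1 was the higher control. The sterol regulatory letters TCACNCCAC occurred in 1.12% of windows and in 0 of the 4 higher cholesterol genes (HMGCS1, IDI1, INSIG1 and SC5D), and GGCGCC, a SMAD-bound motif, in 19.2% of windows and in 1 of 8 higher BMP genes with a window, BAMBI, where it occurred 3 times. No match says only that these letters are not in the window.

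Genes of the nuclear lamina and inner envelope were represented by 17 members, of which LMNB1 alone was called (5.88% lower, against 3.1% of all genes). Lamin B1, a lamina filament that stays farnesylated, read 84.0 units with prelamin A and 234 and 279 units in the controls (-1.44, SE 0.33). Of the 17, 12 were below both controls (70.6%, against 38.8% of all genes), and the median difference was -0.14 from control 1 and -0.69 from control 2. LMNB2 read 298 units against 535 and 612, and the inner membrane protein EMD (emerin) 168 against 299 and 643, and neither was called. The LINC complex genes SUN1 and SUN2 read 2599 and 617 units with prelamin A, against 4326 and 632 on control 1 and 3245 and 845 on control 2.

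For replication and mitosis, 0 of 58 genes were above both controls and 40 were below both (69.0%, against 38.8% of all genes). The genes called lower were 2 (3.45%, near the 3.1% of all genes), CDC45 (36.0 units against 243 and 170) and MYBL2 (107 against 255 and 263; not called with a pseudocount of 64). Control 1 was on average the higher control, by a median of 0.55 on the log2 scale, and the median change was -0.83 from control 1 and -0.29 from control 2. The proliferation marker MKI67 read 257 units against 556 and 362. Cell cycle brakes were mixed: CDKN1C (p57) rose to 857 units against 86.1 and 101 (3.00, SE 0.33), whereas CDKN2A read 496 units against 755 and 1195 and was not called. Of 14 CDK inhibitors and D cyclins, 3 were higher (21.4%, against 5.28% of all genes) and 0 lower. The other higher members were D cyclins. CCND1 read 9480 units against 3372 and 4603 (not called under median centring), and CCND2 1155 units against 228 and 144. In chromatin, UHRF1 fell to 529 units against 1563 and 1368, and HMGB2 to 3171 against 7695 and 6889. These were the genes called among 25 heterochromatin genes (8% lower, against 3.1% of all genes), and the other 23 were not called.

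Further secreted factors rose. EDN1 (endothelin-1), a vasoactive peptide, read 2731 units with prelamin A and 226 and 229 units in the controls (3.50, SE 0.32). In the IGF axis, PAPPA, the protease that frees IGF from its binding proteins, rose to 7592 units against 1127 and 3041 (2.03, SE 0.66; not called with a pseudocount of 1), and STC2, which inhibits PAPPA, to 10600 against 2500 and 4398 (1.67, SE 0.46). The amino acid transporter SLC7A8 read 4158 units against 184 and 234 (4.22, SE 0.35), with 1025 units on the array of prelamin A and FTI and 199, 210 and 168 on those of prelamin A and ZMPSTE24, progerin, and progerin and FTI. In the opposite direction the cytokine IL6 fell to 1312 units against 10434 and 7979 (-2.78, SE 0.36), and PTGS2, the inducible cyclooxygenase, to 1940 units against 6043 and 8181 (-1.85, SE 0.37).

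Several groups showed no called member. These were 37 cytosolic ribosomal protein genes, 33 genes of oxidative phosphorylation, 21 contractile and myofibroblast genes, 13 Notch pathway genes and 10 housekeeping genes, whose median log2 change was 0.0049. Under median centring 2 of the contractile genes were called lower, and under at least 1 alternative 1 housekeeping gene was called higher. The absence of calls does not show that these groups did not differ. Of the 37 ribosomal protein genes, 27 were below both controls (73%, against 38.8% of all genes) and 1 was above both. For oxidative phosphorylation 14 of 33 were below both (42.4%) and 5 above both.

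**Figure D4:**
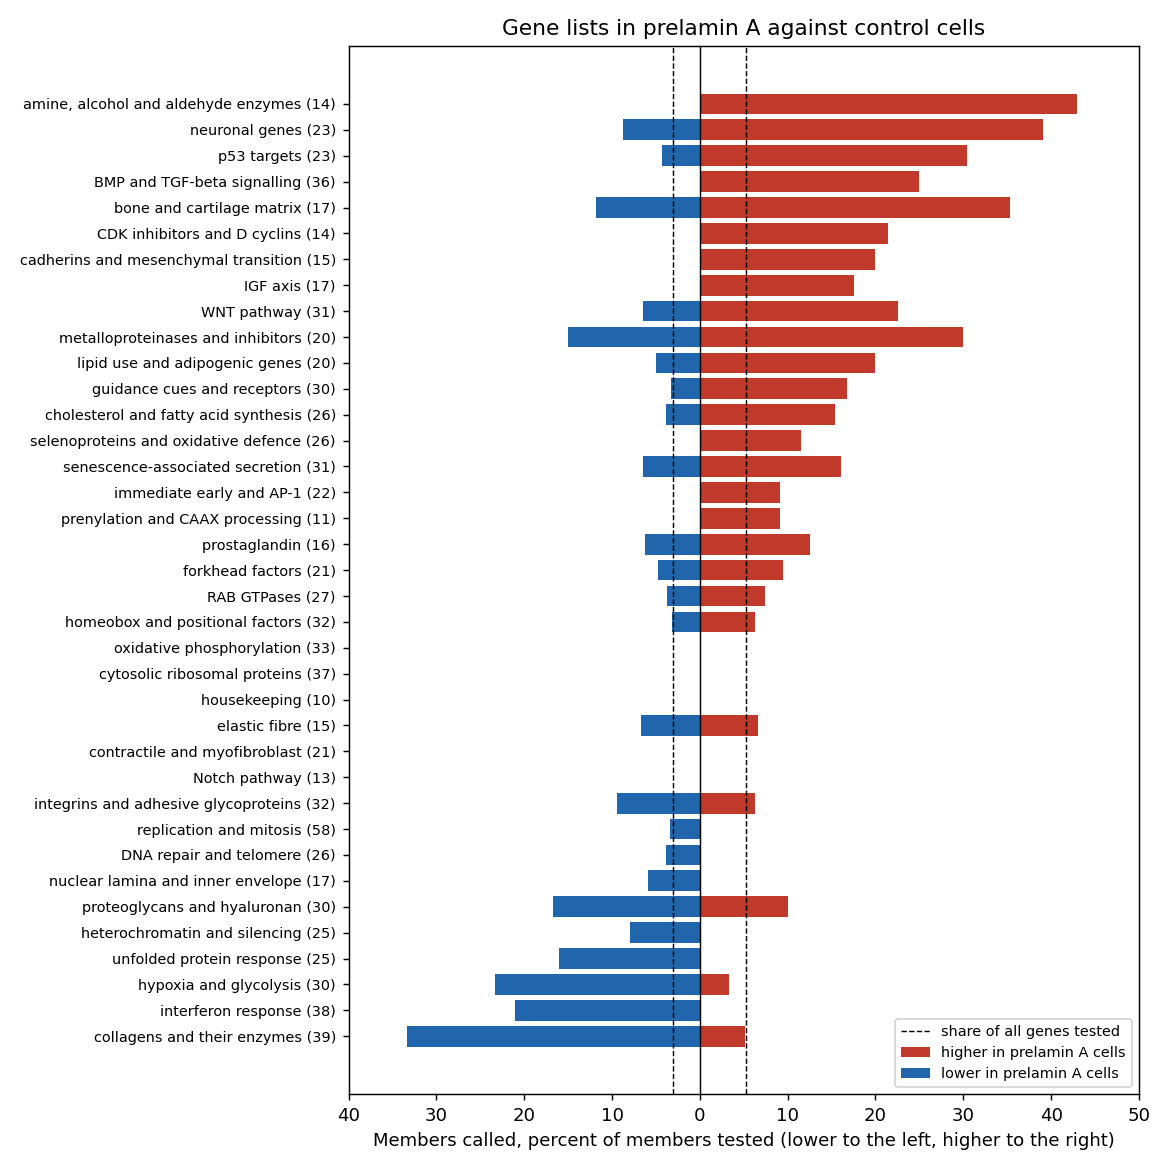
Percent of the tested members of each list (number tested in parentheses) called lower (left, blue) and higher (right, red) in prelamin A cells; dashed lines mark 5.28% higher and 3.1% lower over all genes tested. Amine, alcohol and aldehyde enzymes reach 42.9% higher, and collagens and their enzymes 33.3% lower.

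Called genes were spread over all chromosomes tested. The share of higher genes was 9.57% on chromosome 18 and 9.22% on chromosome 4, and 1.39% on chromosome 19, which also had a median change of -0.14 and short genes (median span 16.3 kb). Higher genes spanned a median of 48.2 kb, lower genes 23.3 kb and all tested genes 29.8 kb. The higher and the lower genes were also dimmer, with median mean signals of 309 and 337 units against 675 over all genes.

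**Figure D5:**
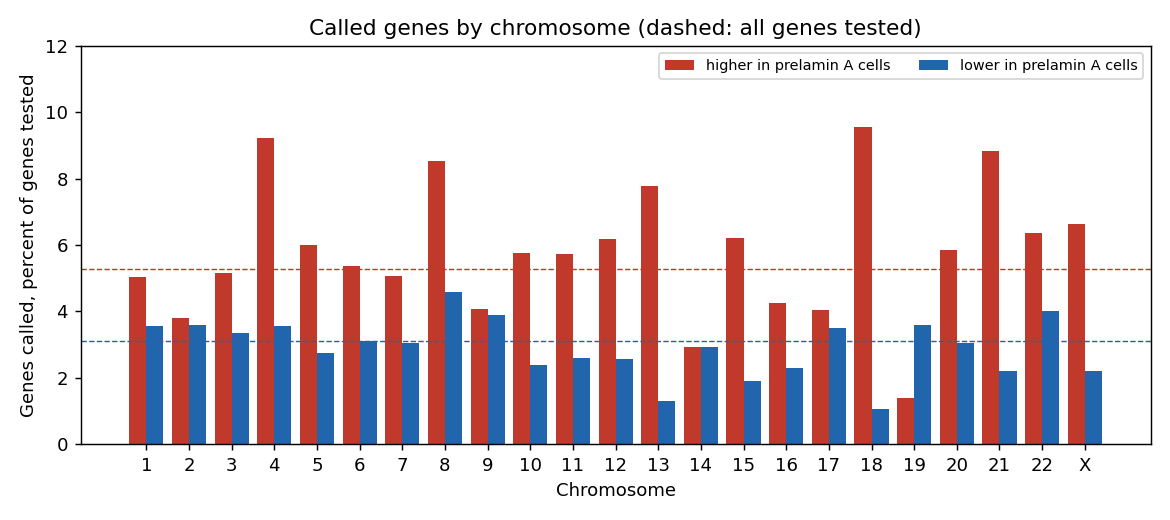
Percent of the genes tested on each chromosome that were called higher (red) or lower (blue) in prelamin A cells; dashed lines give the shares over all genes. Chromosome 18 has 9.57% and chromosome 19 has 1.39% of its genes called higher.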

How the data were processed

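Total RNA of 7 fibroblast samples at passage 10 was measured on Affymetrix arrays. The authors deposited intensity values on a linear scale, 1 MAS 5.0 signal per probe set and array, made with that software's background correction and scaling. The methods name a scaling target, whereas the 2% trimmed mean of each deposited array was about 500 units, which does not change comparisons between arrays. The methods' S-score test, which needs probe-level values, was not run, and precision is limited by how few arrays there were.

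Of 54675 probe sets, 62 were array controls, 41091 had 1 gene in the platform annotation, 1801 had several and 11721 had none; 41037 were found in RefSeq (GRCh38.p14), the source of current symbols and of coordinates. Genes that reveal sex were left out. Each gene was represented by its brightest probe set on average. The log2(signal + 16) values were fitted in limma 3.58.1 (R 4.3.3), with all 7 arrays as 6 conditions, 1 residual and 3.5 prior degrees of freedom. Python 3.11.15 with pandas 2.3.3 was used for counts.

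The members, lists and rule for named genes were chosen with earlier results of these data known. The rule took the 15 largest rises and falls by the smaller of the changes against each control, the 10 largest at 100 units or more on all 3 arrays, the 4 largest called members of each list, and LMNA, ZMPSTE24, FOXQ1 and cell type markers; 143 genes met it, and further list members were named after their values were seen. As alternatives, arrays were median-centred or quantile-normalized, and pseudocounts of 1 and 64 were used, as were other filters, every probe set, an intensity trend, other thresholds and leaving out each control.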

Additional observations from a re-analysis of the deposited data

Results flagged for a closer look

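ID1 was called higher with prelamin A and lower with progerin against the same 2 controls. Its log2 change was 4.54 with prelamin A and -1.76 with progerin, and the difference between the 2 arrays was 6.31 on the log2 scale (SE 0.61, limma unadjusted p = 0.000256, adjusted p = 0.617 over all genes). Each line was 1 array. ID1 was singled out with its values known, so the unadjusted p is a description.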

How the results depend on the processing

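Against 672 higher and 395 lower genes, a pseudocount of 64 gave 237 lower, no filter on dim probe sets gave 1017 higher and 622 lower, every probe set gave 1122 and 746 probe sets, and an unadjusted p under 0.01 gave 350 and 169. Leaving out 1 control, which leaves a fold with no test, gave 979 to 1256 higher and 768 to 938 lower genes, the greater numbers without control 1. The other settings stayed within 1.5 times. Median centring gave 603 higher and 439 lower, quantile normalization 649 and 411, and fold against the mean of the controls 801 and 512. Of 124 called named genes, 88 kept their direction and call in every setting in which they were tested. At an unadjusted p under 0.01, 33 lost the call. With a mean signal of at least 100 required, only 115 of the 124 were tested. Some settings could not remove a call, because a call already needed more than 2-fold against each control. These were requiring no p, using the mean of the controls and leaving out a control. Apart from the stricter p, and besides HSPA5, IFI44L and CCND1, some other genes in the text lost their calls. They were MMP3 (5.03) and PAPPA (2.04) with a pseudocount of 1. With a pseudocount of 64 they were IFI27 (-1.24), MYBL2 (-0.91), NEFM (0.90) and OGN (-1.08). With an intensity trend in limma they were NEFM (1.57) and OGN (-1.98). LEP, not called at -0.62, came to 1.11 without control 1 and to -2.35 without control 2, since it read 202 units with prelamin A and 1099 and 85.0 in the controls. Across the settings other than every probe set and a left-out control, the number of members called ranged from 8 to 14 lower for collagens and their enzymes, 6 to 10 higher for BMP and TGF-β signalling, 2 to 10 lower for interferon response, 3 to 7 lower for hypoxia and glycolysis, 1 to 5 lower for unfolded protein response, 2 to 6 higher for metalloproteinases and inhibitors, and 1 to 7 higher for amine, alcohol and aldehyde enzymes. No paired analysis was possible because the prelamin A group has 1 array. Signals under 100 units limit the dim genes, and 1 array per line limits every value.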
